A study of Mus musculus with 60 samples.

Results

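Mouse hepatocytes grown with interleukin-6 (IL6) turn into dividing cells with features of liver progenitors, named IL6-iHPCs, and a change to a maturation medium then gives hepatocyte-like cells, named IL6-iMHs. The comparison described here is that of IL6-iMHs with the IL6-iHPCs they were made from, in cultures at passage 10 (P10) of the lines mouse-1 and mouse-2. It covers all genes with at least 1 FPKM (fragments normalised to transcript length and library depth) in at least 3 of the 12 libraries, which were 10922 of the 19357 rows of the table. Each line gave 3 IL6-iHPC and 3 IL6-iMH samples, 12 of the series' 60 samples. All 12 were labelled wild type (WT), C57BL/6, with liver as the tissue. By the study's methods the cells came from adult mice, the growth medium held IL6, EGF, HGF and dexamethasone, and the maturation medium held none of the first 3 of these but held oncostatin M and more dexamethasone. Medium, growth factors and state therefore changed together and cannot be told apart. The 3 samples of a group are technical repeats by the study's account, so every p-value below covers the spread between repeats of a line, and 2 lines alone stand for the variation between animals. In bulk RNA, fewer cells of a type and less RNA per cell cannot be told apart.

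Adult hepatocytes carry out the urea cycle, make glucose, bile acids and most plasma proteins, and clear drugs through cytochromes P450 and conjugating enzymes. IL6 and oncostatin M both signal through the receptor chain gp130 and the transcription factor STAT3, which switch on acute phase genes such as those of serum amyloid A. Glucocorticoids such as dexamethasone act through a nuclear receptor that induces enzymes of amino acid breakdown, and they are widely used to keep hepatocytes differentiated.

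Depth was 49.3 M to 88.9 M reads on genes per library, found from the steps between low FPKM values. Albumin (Alb), the main plasma protein, took 1.32% to 1.73% of the reads in IL6-iHPCs and 11.4% to 13.1% in IL6-iMHs. The 12 libraries held 0 reads on 4 Y-linked genes, against 994 to 1550 in the 3 libraries of fresh hepatocytes, so the fresh hepatocytes set beside the lines below do not match them in this respect. In clone-1, used below for comparison, the same genes had 6575 to 9095 reads in the libraries labelled IL6-iHPCs and 0 in those labelled IL6-iMHs. The labelled pair of clone-1 therefore does not match in this respect.

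On maturation, 1209 genes rose (11.1%) and 2588 fell (23.7%), together 34.8% of the genes tested. A gene was called when limma, fitted to log2(FPKM + 1) over the 12 libraries, gave an adjusted p below 0.05 (Benjamini-Hochberg) and the mean of the changes in both lines was at least 2-fold. All changes below are differences of log2(FPKM + 1), which understate the fold of genes with low values. The filter kept 227 genes that reached 1 FPKM in IL6-iMHs alone, of which 136 were called, and 735 that did so in IL6-iHPCs alone, of which 292 were called. These were bound to differ to some degree. Arg1, Tat, Cyp2e1 and Flt1, described below, reached 1 FPKM in IL6-iMHs alone. In 84.0% of genes the change had the same sign in both lines. In mouse-1, 3079 genes were called (28.2%), and in mouse-2 4908 (44.9%). Both lines called 861 genes higher and 1555 lower, and 36 genes were called in opposite directions. The plot of the changes in both lines shows the few groups that leave the diagonal.

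**Figure D1:**
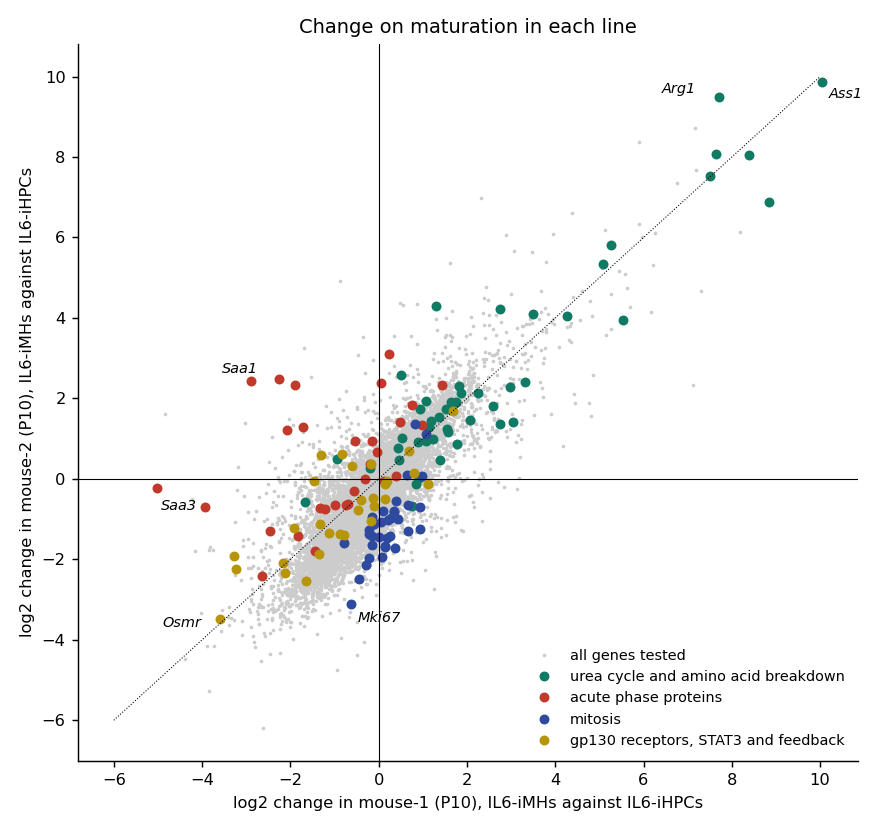
Each point is 1 of 10922 genes, with its log2 change from IL6-iHPCs to IL6-iMHs in mouse-1 on the x axis and in mouse-2 on the y axis, and 4 gene lists in colour. Genes of the urea cycle and amino acid breakdown extend along the dotted diagonal up to Ass1, whereas Saa1 and other acute phase genes lie in the upper left, lower in mouse-1 and higher in mouse-2, and most mitosis genes lie below 0 on the y axis and near 0 on the x axis.

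The direction of change went with the length of the transcript. Alb, at 2061 bases, is shorter than the median gene. The median change over all genes was -0.36, and it fell at each step from 0.90 in the decile of genes with the shortest transcripts (261 to 1183 bases) to -1.32 in the decile with the longest (5927 to 25306 bases). Lengths were those implied by the FPKM steps. Genes that rose had a median length of 1412 bases, and those that fell 4505 bases, against 2790.5 bases over all genes with a length. Spearman's rho across genes was -0.53 in mouse-1, -0.64 in mouse-2, -0.28 in mouse-1 at P35 and -0.07 in clone-1. The sum of FPKM also rose, from 394100 to 408600 in IL6-iHPCs to 496700 to 582600 in IL6-iMHs. When the trend with length was removed within each library, a step added after seeing the data, 1128 genes were higher (10.3%) and 960 lower (8.79%), with a median change over all genes of 0.00. Of the genes called in the first fit, 727 remained higher, 777 remained lower, and 1 of those lower was called higher. Quantile normalization gave 1532 genes higher and 1566 lower, and scaling each library to the same sum of FPKM gave 781 higher and 4690 lower with a median change of -0.81. The share of calls that were higher thus ran from 14.3% to 54.0%, against 31.8% as deposited. The cause of the trend was not tested, and the calls in the gene groups below are given with and without it. Each count over both lines stands beside the shares over all genes. These are 11.1% higher and 23.7% lower as deposited, and 10.3% and 8.79% without the trend.

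**Figure D2:**
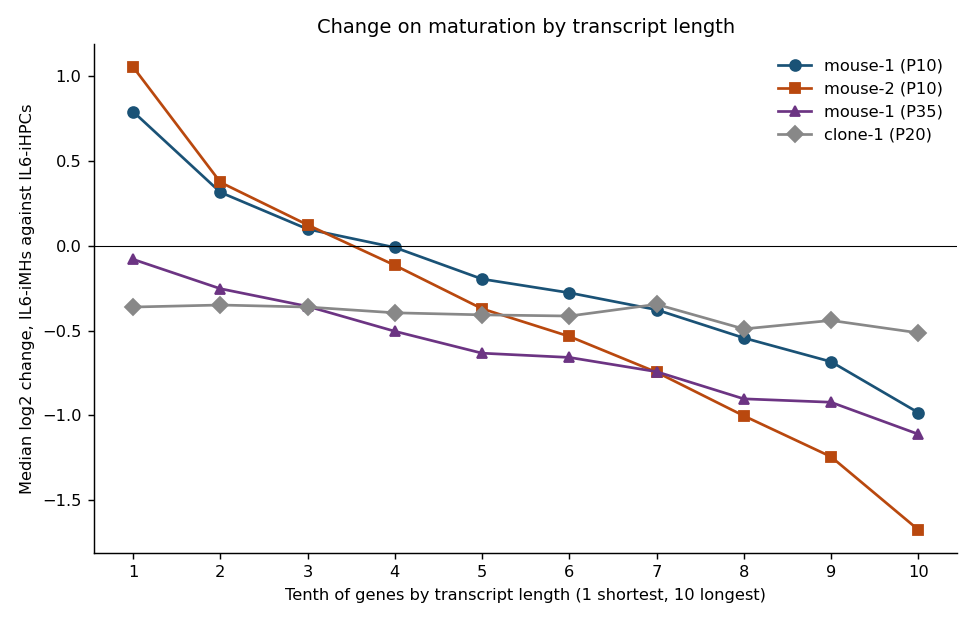
The x axis divides the genes tested into deciles by transcript length and the y axis gives the median log2 change from IL6-iHPCs to IL6-iMHs in each of 4 lines. Both P10 lines fall at each step, from 0.79 and 1.05 in the shortest decile to -0.98 and -1.67 in the longest, while clone-1 stays between -0.34 and -0.51.

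Genes of nitrogen and amino acid disposal held the largest single rises. Of 48 such genes tested, 37 rose and 1 fell, with a median change of 1.77, and 40 were higher and 0 lower with the length trend removed. Argininosuccinate synthase (Ass1), a urea cycle enzyme, stood at 0.286, 1.21 and 0.644 FPKM in IL6-iHPCs of mouse-1 and 1490.2, 2019 and 1837 FPKM in its IL6-iMHs, and 0.0856, 0.0851 and 0.142 FPKM and 1020.5, 1014 and 1031 FPKM in the same states of mouse-2. Its change of 9.95 (standard error 0.11) was the largest rise of any gene called in both lines (limma adjusted p = 6.6e-17), and fresh hepatocytes were at 2141 ± 201 FPKM (mean ± SD, n = 3, as for all such values below). Arginase (Arg1), which releases urea, was at 0.261, 0.515 and 0.492 FPKM in IL6-iHPCs of mouse-1 and 281, 278 and 331 FPKM in its IL6-iMHs, and 0.0473, 0.0658 and 0.105 FPKM and 757, 711 and 859 FPKM in the same states of mouse-2. Cps1, which makes the carbamoyl phosphate that enters the cycle, stood at 0.317, 1.105 and 0.8497 FPKM in IL6-iHPCs of mouse-1 and 679.8, 1110.1 and 666 FPKM in its IL6-iMHs, and 1.12, 1.57 and 1.32 FPKM and 274, 240 and 308 FPKM in the same states of mouse-2. No IL6-iHPC library reached the level of any IL6-iMH library for these 3 genes. Such lack of overlap, here and below, was not counted over all genes. The repeats are technical, and with no fold threshold 9847 of the 10922 genes tested passed at a limma adjusted p below 0.05. Cps1 has a transcript of 5509 bases, and its change went from 7.86 to 8.89 when the length trend was removed.

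Other parts of the cycle moved less. Otc, the enzyme that joins ornithine and carbamoyl phosphate, was at 1.705 ± 0.289 FPKM in IL6-iMHs of mouse-1 and 0.458 ± 0.09101 FPKM in those of mouse-2, against 150.3 ± 0.349 FPKM in fresh hepatocytes, and its change of 0.93 was not called, although it was with the length trend removed (1.24). Tyrosine aminotransferase (Tat), a classical glucocorticoid target, stood at 0.0341, 0.0164 and 0.0322 FPKM in IL6-iHPCs of mouse-1 and 169, 207 and 185 FPKM in its IL6-iMHs, and 0, 0 and 0 FPKM and 174, 177 and 199 FPKM in the same states of mouse-2. Being listed at 0 in a group, it has no fold there. Its change was alike in both lines, at 7.51 and 7.52. Further along tyrosine breakdown, Hpd rose by 8.22, Hgd by 3.81 and Fah, whose loss causes tyrosinaemia, by 1.63. Bhmt, which remethylates homocysteine, rose by 7.86, Cdo1 of cysteine breakdown by 7.13, and Tdo2, which opens the breakdown of tryptophan, by 5.22. The gene of this list called lower was glutamine synthetase (Glul), which is confined to hepatocytes around the central vein in liver, with a change of -1.12 that was no longer called with the length trend removed (-0.77). In mouse-1 its fall was called in both settings (-1.665 as deposited and -1.424 without the trend). In mouse-2 it was called in neither (-0.575 and -0.106).

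**Figure D3:**
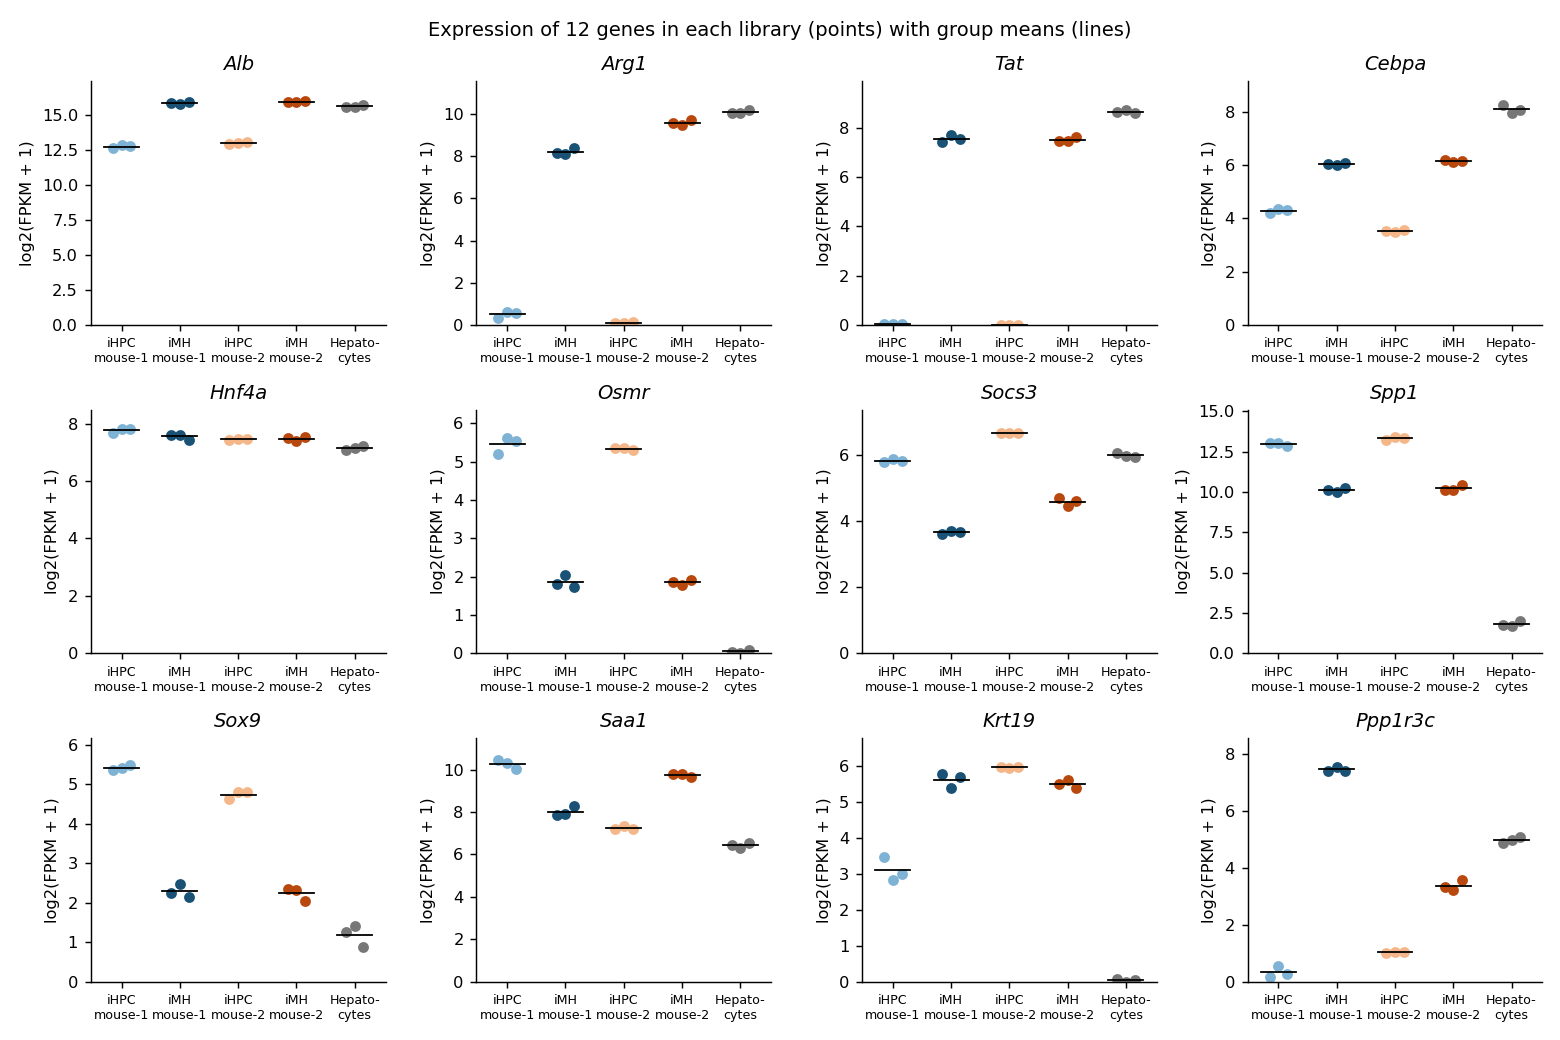
Points are single libraries, 3 in each of the 4 P10 groups and 3 of fresh hepatocytes, lines are group means, and the y axis is log2(FPKM + 1) for 12 genes. Alb, Arg1, Tat and Cebpa rise in both lines, Osmr, Socs3, Spp1 and Sox9 fall in both, Hnf4a overlaps between states in mouse-2, and Saa1 moves in opposite directions in the lines.

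Enzymes of drug and lipid metabolism also rose. Of 39 cytochromes P450 tested, 24 rose and 2 fell (median 1.81, 26 higher and 1 lower with the length trend removed), and of 38 conjugation enzymes, 30 rose and 1 fell (median 1.75, 24 higher and 2 lower with the length trend removed). Cyp3a11, a major drug-oxidising enzyme, stood at 4.13, 5.74 and 5.34 FPKM in IL6-iHPCs of mouse-1 and 856, 824 and 972 FPKM in its IL6-iMHs, and 1.403, 1.14 and 1.12 FPKM and 394, 426 and 568 FPKM in the same states of mouse-2, against 818 ± 116 FPKM in fresh hepatocytes. Cyp2b10, the target of the receptor CAR, reached 80.1 ± 10.9 FPKM and 40.2 ± 4.48 FPKM in IL6-iMHs of mouse-1 and mouse-2, against 1.96 ± 0.128 FPKM in hepatocytes. Cyp17a1, a steroid hydroxylase, reached 209.9 ± 24.1 FPKM and 329 ± 36.1 FPKM, against 1.02 ± 0.246 FPKM. Cyp2e1, which oxidises ethanol, was listed at 0 in all 6 IL6-iHPC libraries and at 5.22, 6.65 and 6.598 FPKM in IL6-iMHs of mouse-1 and 3.84, 3.28 and 5.06 FPKM in those of mouse-2, against 2733 ± 142 FPKM in hepatocytes. Cyp1a2, a target of the dioxin receptor, had changes of -0.80 in mouse-1, which was not called, and 1.72 in mouse-2, which was, and the difference between them was called (-2.52). The enzymes that rose thus ended above, within and far below the range of fresh hepatocytes, a comparison that was not tested. Cytochromes P450 of 1 subfamily are close copies, so that their values are uncertain where the counting could have split reads between them.

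Bile acid synthesis held 18 genes tested, of which 8 rose and 1 fell (median 0.90, 12 higher and 1 lower with the length trend removed). Cyp8b1 and Cyp27a1, which shape and shorten the sterol, rose by 2.11 and 3.69, while Cyp7a1, the rate-limiting enzyme, had a change of 0.94 that was not called, although it was with the length trend removed (1.39), and Fgfr4, the receptor through which FGF represses it, fell (-2.15). Of 38 genes of fatty acid oxidation, 17 rose and 1 fell (median 0.97, 19 higher and 0 lower with the length trend removed). Of 26 genes of glucose production and glycogen, 15 rose and 1 fell (median 1.31, 19 higher and 0 lower with the length trend removed). Gys2, which builds liver glycogen, rose by 3.91, and Fbp1 of gluconeogenesis by 3.47. Pck1, the controlling enzyme of gluconeogenesis, was called higher (1.46) but was at 1.57 ± 0.07599 FPKM and 2.06 ± 0.315 FPKM in the IL6-iMHs of the lines, against 629 ± 45.6 FPKM in hepatocytes. Genes of fatty acid and triglyceride synthesis held 3 rises and 7 falls among 26, near the shares over all genes (11.1% rose and 23.7% fell). Mlxipl, the glucose-responsive transcription factor ChREBP (-2.83), and Acaca, the carboxylase that commits carbon to fatty acids (-2.50), fell. After removal of the length trend these were -2.33 and -1.05. The list then held 8 genes higher and 2 lower, where 10.3% of all genes were higher and 8.79% lower.

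Lists of transport, iron and lipid storage genes each held a larger share of rises than all genes, of which 11.1% rose and 23.7% fell. With the length trend removed, 10.3% of all genes were higher and 8.79% lower. Of 26 drug and metabolite transporters, 8 rose and 5 fell (median 0.15, 9 higher and 2 lower with the length trend removed). The uptake carriers Slco1a1 (3.27), Slco1a4 (2.91) and Slc10a1, which takes bile acids from blood (2.77), rose, and the exporter Abcc4 fell (-2.21). Of 24 genes of metallothioneins, zinc and iron, 6 rose and 7 fell (median -0.14, 5 higher and 6 lower with the length trend removed). Hfe2, the haemojuvelin that senses iron, and Tmprss6, the protease that cleaves it, rose by 4.37 and 3.37, and the transferrin receptor Tfrc (-3.16) and haem oxygenase Hmox1 (-1.89) fell. Hmox1 changed by -2.96 in mouse-1 and by -0.82, not called, in mouse-2. Of 21 fatty acid binding and lipid droplet genes, 8 rose and 1 fell (median 0.60, 9 higher and 2 lower with the length trend removed), led by the esterase Ces1d (4.12) and the droplet proteins Plin5 (3.52) and Cidec (2.83). Of 24 genes of sterol synthesis, 3 rose and 2 fell (median -0.04, 4 higher and 1 lower with the length trend removed), with Idi1 the steepest fall (-2.07). Of 22 glycolysis genes of proliferating cells, 5 rose and 3 fell (median 0.22, 5 higher and 0 lower with the length trend removed), and of 28 antioxidant genes, 8 rose and 8 fell (median 0.33, 6 higher and 4 lower with the length trend removed). Among 23 metabolic nuclear receptors, 2 rose and 7 fell, which became 5 higher and 0 lower with the length trend removed. Pparg (1.05) and Esrra (1.58) rose, and Rora (-2.30) was among the falls that were not called without the trend.

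Secreted proteins were divided. Alb stood at 6397, 7267 and 6842 FPKM in IL6-iHPCs of mouse-1 and 60214, 55472 and 60879.5 FPKM in its IL6-iMHs, and 7789.9, 8129.9 and 8373 FPKM and 61968, 60754 and 63707 FPKM in the same states of mouse-2, and fresh hepatocytes were at 50009.5 ± 3332 FPKM. Apoa1, the main protein of high-density lipoprotein, and Apoc3, an inhibitor of lipoprotein lipase, rose by 5.19 and 5.98. Apob, the structural protein of very low density lipoprotein, fell from 666 ± 41.6 FPKM to 147 ± 52.95 FPKM in mouse-1 and from 562 ± 1.55 FPKM to 30.3 ± 18.2 FPKM in mouse-2. Its transcript of 13443 bases is among the longest tested, and its change of -3.27 became -1.52 with the length trend removed. Of 26 apolipoprotein and lipoprotein export genes, 14 rose and 3 fell (median 1.51, 14 higher and 2 lower with the length trend removed). Among 30 coagulation genes, 10 rose and 3 fell (median 0.34, 10 higher and 4 lower with the length trend removed). Plasminogen (Plg) and antithrombin (Serpinc1) rose by 4.47 and 3.67, with 2.89 and 6.05 for Plg in the lines, and tissue plasminogen activator (Plat) fell (-2.80). Serpinc1 nevertheless stood at 15.8 ± 2.25 FPKM and 23.1 ± 4.69 FPKM in IL6-iMHs, against 1606 ± 30.9 FPKM in hepatocytes. Of 26 complement genes, 7 rose and 4 fell (median 0.20, 8 higher and 2 lower with the length trend removed), with C6, a part of the membrane attack complex, at the top (3.71). Of 37 other plasma proteins and serpins, 17 rose and 3 fell (median 0.84, 15 higher and 0 lower with the length trend removed), and fetuin-A (Ahsg), a carrier of calcium phosphate, rose by 3.60. Tff3, a mucosal trefoil peptide and no hepatocyte marker, was among the 12 largest rises. It stood at 2.26, 2.85 and 3.003 FPKM in IL6-iHPCs of mouse-1 and 1191, 949.8 and 1082 FPKM in its IL6-iMHs, and 8.54, 10.6 and 7.49 FPKM and 686, 747 and 632 FPKM in the same states of mouse-2, with hepatocytes at 5.44 ± 0.207 FPKM.

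The liver's own transcription factors moved in both directions, with 4 rises and 4 falls among 20 tested (median -0.41), and 4 higher and 1 lower (median -0.05) with the length trend removed. Hnf4a, a central regulator of hepatocyte identity, stood at 201, 226 and 222 FPKM in IL6-iHPCs of mouse-1 and 195, 194 and 173 FPKM in its IL6-iMHs, and 172, 175 and 174 FPKM and 181, 166 and 185 FPKM in the same states of mouse-2, a change of -0.09 that did not pass (limma adjusted p = 0.13). The groups overlapped in mouse-2, and the change was 0.72 with the length trend removed, again not called. Cebpa, which drives hepatocyte maturation and restrains growth, stood at 17.6, 19.4 and 18.9 FPKM in IL6-iHPCs of mouse-1 and 65.3, 63.4 and 67.4 FPKM in its IL6-iMHs, and 10.4, 10.4 and 10.95 FPKM and 73.3, 69.2 and 71.3 FPKM in the same states of mouse-2, without overlap. Its rise was 2.20 (standard error 0.04), with a limma adjusted p of 2.1e-14, and hepatocytes were at 274 ± 27.6 FPKM. Foxa3 (1.94), Klf15 (1.41) and Gata6 (1.03) also rose, Gata6 through mouse-2 (1.66, against 0.41 in mouse-1, which was not called). Falls were seen in Onecut1 (-1.47), Onecut2 (-2.23) and Prox1 (-2.19), factors of early liver or bile duct development. Of these 3, Onecut1 alone was still called with the length trend removed (-1.56). Its fall came from mouse-2 (-2.54), and its change of -0.41 in mouse-1 was not called. Of the 20 factors tested, Foxa1 (-0.59), Foxa2 (-0.39), Cebpb (0.40), Gata4 (-0.44) and Nr5a2 (-0.72) were not called. Foxa2 nevertheless fell in mouse-2 (-1.35) and had a change of 0.57 in mouse-1 that was not called. The difference between the lines was called for 6 factors with mouse-1 the higher and 2 with it the lower (4 and 3 with the length trend removed). Gata6, Onecut1 and Foxa2 were among those called as deposited. Over all genes this difference was called for 16.6%.

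The gp130 pathway was tested by 29 genes, of which 1 rose and 12 fell (median -0.61, 3 higher and 8 lower with the length trend removed). Among all genes 11.1% rose and 23.7% fell (10.3% higher and 8.79% lower without the trend). Osmr, the receptor chain that joins gp130 to bind oncostatin M, stood at 35.7, 47.9 and 45.8 FPKM in IL6-iHPCs of mouse-1 and 2.51, 3.095 and 2.32 FPKM in its IL6-iMHs, and 39.9, 39.8 and 38.6 FPKM and 2.62, 2.47 and 2.79 FPKM in the same states of mouse-2, without overlap. Its change was -3.59 and -3.48 in the lines, and that of -3.54 over both became -2.62 without the length trend. Socs3, the feedback inhibitor that STAT3 induces, stood at 55.05, 57.9 and 55.4 FPKM in IL6-iHPCs of mouse-1 and 11.4, 12.1 and 11.9 FPKM in its IL6-iMHs, and 101, 103 and 103 FPKM and 25.1, 21.1 and 23.8 FPKM in the same states of mouse-2, lower in every IL6-iMH library. The ligand Clcf1 (-2.73), Socs2 (-2.23), the kinase Jak2 (-2.10) and the interleukin-4 receptor chain Il4ra (-2.59) also fell, and all of these remained called without the length trend. Stat3 itself (-1.22), gp130 (Il6st, -1.12), Jak1 (-1.60), Cish (-1.23) and the interleukin-1 receptor Il1r1 (-1.57) were called lower with the trend in place but not without it. The ligand Ctf1, cardiotrophin-1, was the sole rise (1.69). Il6ra, the chain that binds IL6, had changes of 1.12 in mouse-1 and -0.14 in mouse-2. Lifr, the leukaemia inhibitory factor receptor, had means of 0.908 to 1.47 FPKM over the 4 groups, against 103 ± 3.31 FPKM in hepatocytes. Il6, Osm and Il11 did not pass the filter on low values. Bcl3, a nuclear cofactor of NF-kappaB, also fell (-1.09), and the other 14 of the list's genes were not called, among them Tyk2 (-0.40). With the length trend removed Il6ra (1.01) and Stat5b (1.52) were called higher and Socs1 (-1.08) lower.

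Acute phase genes separated the lines. The list as a whole showed 5 rises and 7 falls among 30 genes, but its median was -0.72 in mouse-1, with 1 rise and 13 falls, and 0.22 in mouse-2, with 11 rises and 4 falls. Over all genes 10.8% rose and 17.4% fell in mouse-1 and 12.7% and 32.3% in mouse-2, with medians of -0.22 and -0.45. With the length trend removed, the list held 4 higher and 8 lower (median -0.66) over both lines. In mouse-1 it then held 1 higher and 13 lower (median -0.87), and in mouse-2 9 higher and 5 lower (median -0.06), so that the sign of the median of mouse-2 turned. Over all genes 9.78% were then higher and 8.5% lower in mouse-1 and 13% and 12% in mouse-2. The difference between the lines was itself called for 13 of the 30 genes (interaction term of the same limma fit), in all 13 with mouse-1 the lower, and for 12 with the length trend removed. Over all genes this difference was called for 16.6%. Serum amyloid A1 (Saa1), a lipid-binding acute phase protein, stood at 1384, 1271 and 1036 FPKM in IL6-iHPCs of mouse-1 and 231, 236 and 309.6 FPKM in its IL6-iMHs, and 149, 162 and 149 FPKM and 886, 894 and 811 FPKM in the same states of mouse-2. It thus fell in one line and rose in the other without overlap in either, a difference of -4.74 (standard error 0.17) with a limma adjusted p of 2.0e-10. Saa2 (-5.31), Saa4 (-4.24) and the orosomucoids Orm1 (-3.0) and Orm2 (-3.29) likewise fell in mouse-1 and rose in mouse-2. Saa3 stood at 551, 202 and 268 FPKM in IL6-iHPCs of mouse-1 and 10.997, 6.87 and 8.295 FPKM in its IL6-iMHs, and 13.2, 12.8 and 15.1 FPKM and 12.1, 13.4 and 9.29 FPKM in the same states of mouse-2. It fell in mouse-1 alone, in which it began high, and its IL6-iHPC libraries of that line were widely spread. In each of these genes the IL6-iHPCs of mouse-1 were the higher at the start. Saa1 and Saa2 are close copies, as are Orm1 and Orm2, and reads that fit both could have been split between them by the counting.

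The upstream sequences of Saa1 and Saa2 are shown because these 2 genes changed together and in opposite directions in the lines. They are the 250 bases before the start of each gene, from RefSeq on GRCm38.p6, at chr7:46742981-46743230 on the minus strand and chr7:46751583-46751832 on the plus strand, with the letters TTGCNNAA (either strand, N any base), the letters of C/EBP sites, in capitals.
Saa1: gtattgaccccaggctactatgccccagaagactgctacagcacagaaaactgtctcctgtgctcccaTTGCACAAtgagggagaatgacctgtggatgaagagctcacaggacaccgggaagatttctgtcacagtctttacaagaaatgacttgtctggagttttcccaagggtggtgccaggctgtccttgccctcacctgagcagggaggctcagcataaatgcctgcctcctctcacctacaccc
Saa2: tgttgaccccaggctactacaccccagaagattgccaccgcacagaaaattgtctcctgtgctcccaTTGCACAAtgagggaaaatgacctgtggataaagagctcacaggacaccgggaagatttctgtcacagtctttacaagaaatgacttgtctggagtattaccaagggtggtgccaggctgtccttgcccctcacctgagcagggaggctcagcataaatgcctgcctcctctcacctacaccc
The stretches are 94.8% identical in a global alignment. Over 24 promoters found for 23 acute phase genes, from 250 bases before to 50 after the start, 14 held TTGCNNAA (58.3%), against 10.8% of all 32851 promoters in the table. This motif was added after the data were seen. TTCNNNGAA, the letters of STAT sites, was in 5 of the 24 (20.8%, all promoters 8.30%). Matches are a description of letters and not of binding.

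Of the other acute phase genes, C-reactive protein (Crp, 1.89) and Serpina3m (1.16) rose, and C3 (-1.62), ceruloplasmin (Cp, -1.62), the protease inhibitor Timp1 (-2.53) and Itih3 (-1.03) fell, with no called difference between the lines. Serpina3m, C3, Cp and Itih3 were not called with the length trend removed. Hemopexin (Hpx, 0.76 and 1.83), Itih4 (0.22 and 3.09), the lipopolysaccharide co-receptor Cd14 (-2.46 and -1.31) and Orm3 (-3.93 and -0.70) differed between mouse-1 and mouse-2 in size. A2m was called higher (1.23) through mouse-2, at 4.68 ± 0.427 FPKM in its IL6-iMHs and at a mean of at most 0.113 FPKM in the other P10 groups. The fibrinogen chains Fga, Fgb and Fgg had changes of -0.69, -0.66 and -0.43 and were not called, and haptoglobin (Hp) with 0.95 was not called either. Lipocalin-2 (Lcn2), which binds bacterial siderophores, was not called (0.21) and remained abundant, at 5972 ± 567 FPKM and 8541 ± 326 FPKM in IL6-iMHs against 2.88 ± 0.3495 FPKM in fresh hepatocytes. Its changes of -0.53 in mouse-1 and 0.95 in mouse-2 differed by -1.48, which was called (-1.24 with the length trend removed, also called). Hamp, Il1rn and Serpina3g did not pass the filter on low values.

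The lines also differed in genes that report growth factor signalling. Of 39 feedback genes and targets of the ERK kinases, 25 fell in mouse-1 (median -1.39) and 10 in mouse-2 (median -0.14), and the difference was called for 23, in 19 of which mouse-1 was the lower. These falls compare with the 17.4% and 32.3% of all genes that fell in the lines. With the length trend removed the list held 4 higher and 23 lower (median -1.298) in mouse-1 and 9 higher and 4 lower (median 0.27) in mouse-2, where the median turned sign. The difference was then called for 20, all with mouse-1 the lower. Among all genes, 16.6% had a called difference between the lines as deposited. Mouse-1 was the higher in 76.55% of those calls (51.46% of the calls without the trend). Egr1, an immediate early factor, stood at 62.5, 57.2 and 61.6 FPKM in IL6-iHPCs of mouse-1 and 6.59, 7.504 and 5.68 FPKM in its IL6-iMHs, and 25.6, 29.2 and 29.2 FPKM and 79.1, 82.7 and 63.4 FPKM in the same states of mouse-2, and so fell in mouse-1 and rose in mouse-2. Hbegf, a ligand of the EGF receptor, had changes of -2.41 and 1.04, and the phosphatase Dusp5 -2.52 and -0.14. Ccnd1, the cyclin of G1 entry, fell in both (-1.39 and -2.02), as did Myc (-1.86 and -1.13). The amino acid stress response, which ATF4 drives when amino acids run short, showed 20 of 35 genes lower in mouse-1 and 10 in mouse-2, and 17 differences in which mouse-1 was the lower against 2 in which it was the higher (19 and 0 with the length trend removed). The shares of all genes that fell were again 17.4% and 32.3%, and the share with a called difference was again 16.6%. Without the trend the list held 1 higher and 22 lower (median -1.27) in mouse-1 and 6 higher and 6 lower (median 0.18) in mouse-2, against a median of -0.44 in mouse-2 as deposited. Nupr1, a stress-induced nuclear protein, fell in both (-2.78), and Atf3 had changes of -1.94 and 1.35.

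The largest differences between the lines, whatever the list, were in Osgin1 (-6.45), Thrsp (-5.78), Saa2, Gckr (-4.94), Saa3 and Saa1 with mouse-1 the lower, and in Ppp1r3c (4.79), Mbp (3.98), Wnt16 (3.88), Col6a1 (3.81), Rsrp1 (3.72) and Ace (3.57) with mouse-1 the higher. All 12 remained called with the length trend removed. Osgin1, an oxidative stress gene, stood at 210.2, 206 and 210.2 FPKM in IL6-iHPCs of mouse-1 and 6.997, 5.79 and 6.14 FPKM in its IL6-iMHs, and 19.04, 19.5 and 18.02 FPKM and 62.8, 60.96 and 54.4 FPKM in the same states of mouse-2. Thrsp, which promotes lipid synthesis, and Gckr, a regulator of hepatic glucose use, rose in mouse-2 (4.91 and 3.25), and in mouse-1 Gckr fell (-1.69) and Thrsp had a change of -0.87 that was not called. Ppp1r3c, which targets a phosphatase to glycogen, stood at 0.129, 0.474 and 0.221 FPKM in IL6-iHPCs of mouse-1 and 169, 188 and 169 FPKM in its IL6-iMHs, and 1.03, 1.07 and 1.06 FPKM and 8.93, 8.35 and 10.9 FPKM in the same states of mouse-2. It rose in both, and fresh hepatocytes (30.8 ± 2.29 FPKM) lay between the IL6-iMHs of the lines. Wnt16 and Col6a1 fell in mouse-2 from 22.4 ± 1.58 FPKM and 28.99 ± 1.21 FPKM, where the IL6-iHPCs of mouse-1 held less (1.09 ± 0.0992 FPKM and 2.902 ± 0.134 FPKM).

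Markers of the progenitor state fell in part. Of 22 biliary and progenitor markers tested, 6 rose and 9 fell (median -0.65, 4 higher and 5 lower with the length trend removed). Osteopontin (Spp1), a secreted ligand of integrins made by bile duct cells, stood at 8353, 8391 and 7358 FPKM in IL6-iHPCs of mouse-1 and 1095, 1044 and 1215 FPKM in its IL6-iMHs, and 9772, 10889 and 10385 FPKM and 1104, 1131 and 1363 FPKM in the same states of mouse-2, a change of -2.98, against 2.56 ± 0.368 FPKM in hepatocytes. Sox9, a transcription factor of bile duct and progenitor cells, stood at 39.7, 41.2 and 43.6 FPKM in IL6-iHPCs of mouse-1 and 3.72, 4.54 and 3.45 FPKM in its IL6-iMHs, and 23.4, 26.9 and 26.7 FPKM and 4.13, 3.97 and 3.09 FPKM in the same states of mouse-2, without overlap. Sox4 (-2.38), Klf5 (-2.10) and the integrin chain Itga6 (-2.30) fell as well. Krt19, a keratin of bile ducts, stood at 9.94, 6.07 and 6.94 FPKM in IL6-iHPCs of mouse-1 and 53.4, 40.4 and 50.2 FPKM in its IL6-iMHs, and 61.5, 60.4 and 61.2 FPKM and 44.2, 47.5 and 40.4 FPKM in the same states of mouse-2. It rose in mouse-1 (2.52) and had a change of -0.47 in mouse-2 that was not called, a difference of 2.98. Over both lines Krt19 was called higher (1.03) but not with the length trend removed (0.45). Without the trend it was called higher in mouse-1 (2.01) and lower in mouse-2 (-1.10). Krt7 (1.63), Tspan8 (2.04) and Tm4sf4 (1.93) rose. Elf3 (-0.59) and Barx2 (0.06), transcription factors of epithelial cells, were not called. Epcam, a surface marker of bile duct cells, was below the filter in these libraries.

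Lists of adhesion, matrix and cytoskeleton genes held more falls than rises, as did all genes (23.7% fell and 11.1% rose). With the length trend removed, 8.79% of all genes were lower and 10.3% higher. Anxa8, a calcium-dependent membrane-binding protein, had the largest fall of any gene called in both lines. It stood at 136, 199 and 175 FPKM in IL6-iHPCs of mouse-1 and 11.9, 9.01 and 11.7 FPKM in its IL6-iMHs, and 364, 387 and 375 FPKM and 8.8997, 9.31 and 7.88 FPKM in the same states of mouse-2, without overlap. At 1843 bases its change was -4.56, and -4.63 without the length trend. Podxl, a sialomucin of epithelial surfaces (-4.43, -3.43 without the trend), Ace, the angiotensin-converting enzyme (-4.41, -3.60), F830016B08Rik (-4.03, -3.35), the serotonin receptor Htr2a (-3.51, -3.11), the matrix protein Fbln2 (-3.49, -2.69) and Tgfbr1, a receptor of TGF-beta (-3.49, -2.43), followed. Atrx, a chromatin remodeller, Pcm1, a centrosomal protein, and Tpr, of the nuclear pore, with transcripts of 9621, 7747 and 7545 bases, fell as well (-3.93, -3.67 and -3.60) and remained lower without the trend (-2.44, -2.35 and -2.29). Of 23 collagens, laminins and integrins, 0 rose and 14 fell (median -1.07). Their median transcript length was 5493 bases, and 2 were higher and 6 lower with the length trend removed. Of 25 targets of YAP and TEAD, 2 rose and 16 fell (median -1.09, 2 higher and 8 lower with the length trend removed). Of 41 genes of the mesenchymal shift and cytoskeleton, 4 rose and 14 fell (median -0.65), and without the trend 16 fell and 2 rose. Vimentin (Vim, -1.84), fibronectin (Fn1, -2.53) and the actin cross-linker Actn1 (-2.38) fell, and the lectin Lgals1 (2.11) and S100a6 (2.03) rose, of which S100a6 was not called with the length trend removed (0.97).

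Signalling lists outside the gp130 pathway are set beside all genes, of which 11.1% rose and 23.7% fell. With the length trend removed, 10.3% of all genes were higher and 8.79% lower. Of 21 EGF and HGF receptors and ligands, 0 rose and 7 fell (median -0.60, 1 higher and 3 lower with the length trend removed). The EGF receptor Egfr fell (-1.71), alike in both lines (-1.72 and -1.70), but was not called over both lines with the length trend removed. Its ligand Ereg (-1.78) still was, through mouse-1. Ereg changed by -2.77 in mouse-1 and by -0.80, not called, in mouse-2, and by -2.25 and 0.17 with the length trend removed. Of 28 genes of TGF-beta and activin, 3 rose and 10 fell (median -0.87, 3 higher and 4 lower with the length trend removed). Ltbp1, which tethers latent TGF-beta to matrix, fell (-2.77). Of 19 Wnt targets and regulators, 3 rose and 4 fell, which became 4 higher and 0 lower without the trend, and of 10 Notch genes, 1 rose and 5 fell (1 higher and 1 lower with the length trend removed). Of 17 chemokines and neutrophil attractants, 5 rose and 1 fell (median 0.02, 3 higher and 3 lower with the length trend removed), with Ccl9 (3.44) and Cxcl12 (2.64), attractants of myeloid cells and lymphocytes, the largest. Of 30 genes of protein folding in the endoplasmic reticulum, 3 rose and 5 fell (1 higher and 2 lower with the length trend removed). These counts are no larger than the shares over all genes. Of 10 fetal liver genes, 4 rose and 3 fell (4 higher and 2 lower with the length trend removed).

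**Figure D4:**
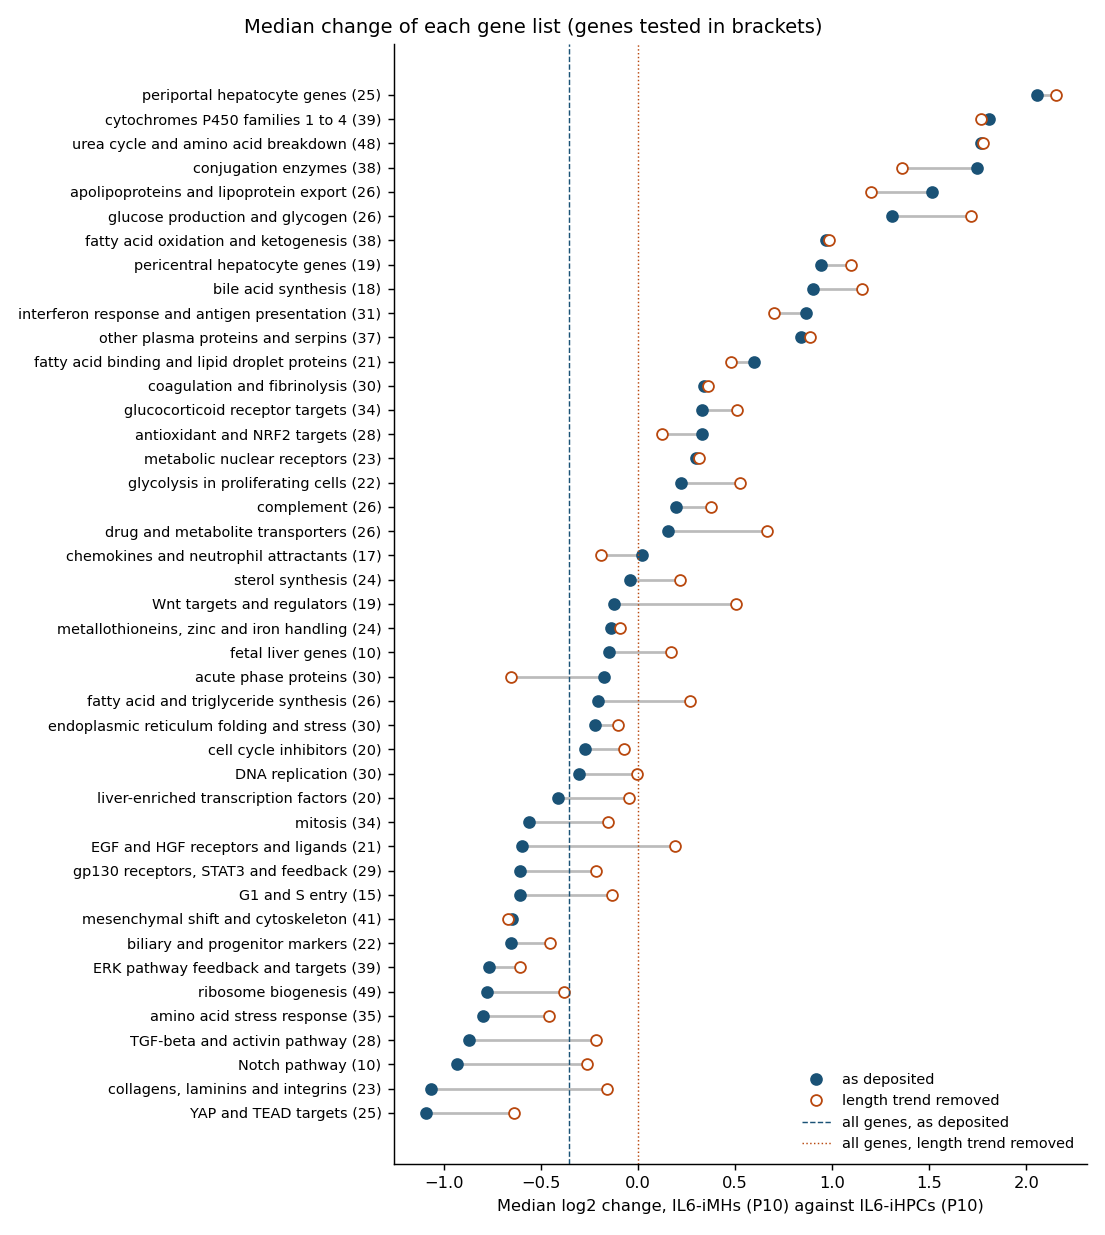
Each row is a gene list with at least 10 genes tested, filled points give its median log2 change as deposited, open points the same with the length trend removed, and the vertical lines mark all genes. The urea and amino acid list lies at 1.77 and 1.78, while collagens, laminins and integrins move from -1.07 to -0.16.

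Mitosis genes were mostly not called in mouse-1 and fell in part in mouse-2. Of 34 mitosis genes, 2 rose and 5 fell over both lines. The list's median was 0.17 in mouse-1, with 0 falls, and -1.26 in mouse-2, with 22 falls. With the length trend removed it was 0.44 and -0.82, with 0 and 9 falls, and 0 genes higher and 0 lower over both lines. Over all genes 17.4% fell in mouse-1 and 32.3% in mouse-2 (8.5% and 12% without the trend). The difference between the lines was called for 26 of the 34, all with mouse-1 the higher, and for 18 without the trend. Over all genes it was called for 16.6%, and mouse-1 was the higher in 76.55% of those calls (51.46% without the trend). Mki67, the antigen Ki-67 of cycling cells, stood at 1.11, 0.668 and 0.974 FPKM in IL6-iHPCs of mouse-1 and 0.292, 0.212 and 0.213 FPKM in its IL6-iMHs, and 7.54, 9.41 and 8.38 FPKM and 0.0303, 0.0648 and 0.168 FPKM in the same states of mouse-2. The states did not overlap in either line, though the change of -0.62 in mouse-1 was not called. At 9517 bases the change over both lines went from -1.87, which was called, to -0.39 with the length trend removed, which was not. Levels as low as those in IL6-iHPCs of mouse-1 leave little room for a fall in log2(FPKM + 1). Ccnb2, a cyclin of mitosis, stood at 1.15, 0.405 and 0.632 FPKM in IL6-iHPCs of mouse-1 and 1.91, 1.48 and 1.74 FPKM in its IL6-iMHs, and 5.12, 6.93 and 6.26 FPKM and 2.27, 1.93 and 1.52 FPKM in the same states of mouse-2. The IL6-iMHs of both lines therefore overlapped, while their IL6-iHPCs did not. Foxm1, which drives mitotic genes, had changes of 0.01 and -1.44, and Mxd3, a MAX partner of cycling cells, -0.60 and -0.03. Of 15 genes of G1 and S entry, 0 rose and 5 fell (0 higher and 3 lower with the length trend removed), and of 20 cell cycle inhibitors, 4 rose and 3 fell (2 higher and 2 lower with the length trend removed), among them Cdkn1a, which encodes p21, higher (1.05). Over both lines 11.1% of all genes rose and 23.7% fell (10.3% higher and 8.79% lower without the trend). Of 30 DNA replication genes, Mcm4, a helicase subunit, was the sole call (-1.69), and the list's median was -0.30 (0.17 with quantile normalization, and -0.01 with 1 gene higher and 2 lower without the length trend).

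The median change of the same mitosis list was -4.45 in mouse-1 at P35 and -3.34 in clone-1 at P20, with 32 of 34 genes lower in each, and again 32 in each with the length trend removed. Over all genes 36.3% were lower in mouse-1 at P35 and 17.3% in clone-1. The difference between the P10 and the P35 change of mouse-1 was called for 34 of 34 genes, and that between the mean P10 change and clone-1 for 33. Each of these differences was called for 29 of 30 DNA replication genes. In all of these calls the P10 change was the higher. Both comparisons use P10 libraries of mouse-1. Over all genes 34.4% were called against P35 and 33.9% against clone-1. Without the length trend the mitosis counts were 33 and 32, and those of DNA replication were 29 and 24. The largest differences from P35 on this side were in Ccnb1 (7.07), Ube2c (6.83), Ccnb2 (6.24), Ccna2 (6.10), Kif22 (5.96) and Plk1 (5.95), genes of the cell cycle. Ccnb1 went from 0.289 ± 0.1204 FPKM to 1.502 ± 0.452 FPKM at P10 and from 88.99 ± 2.103 FPKM to 0.297 ± 0.131 FPKM at P35. The level in IL6-iHPCs of P35 was thus the high one of the 4.

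**Figure D5:**
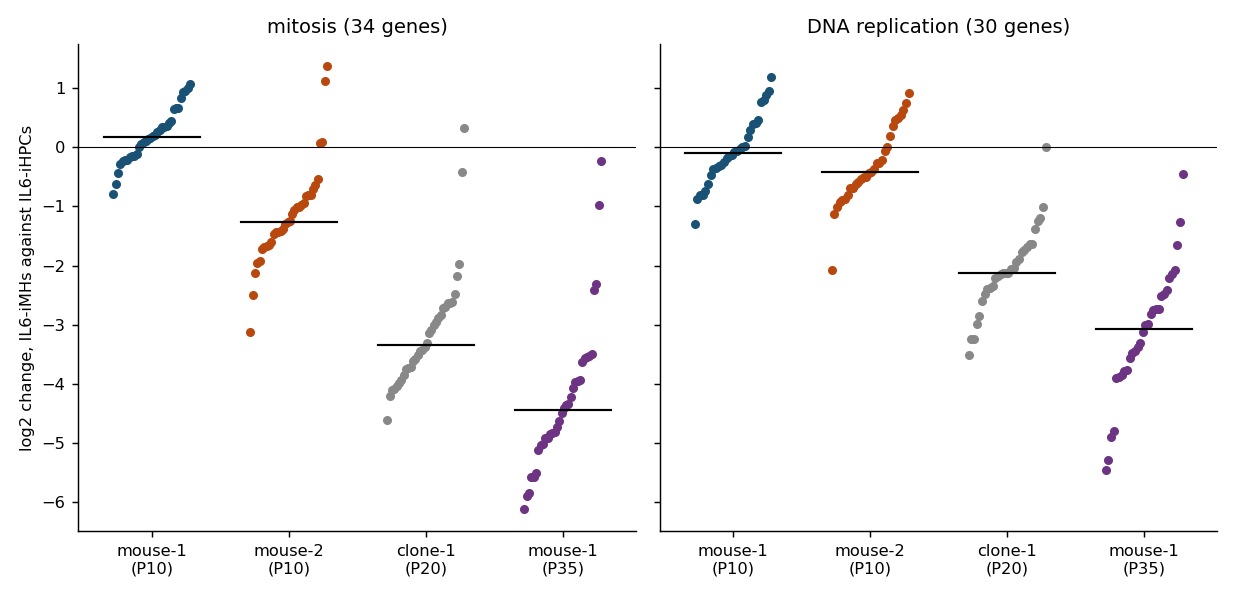
Points are genes of mitosis (left) and DNA replication (right), sorted within each line, the y axis is the log2 change from IL6-iHPCs to IL6-iMHs, and bars are medians. The median of the mitosis genes is 0.17 in mouse-1 and -1.26 in mouse-2 at P10, against -3.34 in clone-1 and -4.45 in mouse-1 at P35.

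Upstream sequences of the cyclins Ccnb1 and Ccnb2 are shown as members of this group, again the 250 bases before the start from RefSeq on GRCm38.p6, at chr13:100786487-100786736 and chr9:70421555-70421804, both on the minus strand. Capitals mark CCAAT, the letters bound by NF-Y, in Ccnb1 and CCAAT and TTTGAA, the letters of the cell cycle homology region, in Ccnb2, on either strand, and the marked stretches do not overlap.
Ccnb1: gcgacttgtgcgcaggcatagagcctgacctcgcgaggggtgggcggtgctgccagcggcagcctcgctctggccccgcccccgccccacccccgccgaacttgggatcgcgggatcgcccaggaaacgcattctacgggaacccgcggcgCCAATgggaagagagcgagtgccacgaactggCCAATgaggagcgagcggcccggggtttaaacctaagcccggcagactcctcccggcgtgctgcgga
Ccnb2: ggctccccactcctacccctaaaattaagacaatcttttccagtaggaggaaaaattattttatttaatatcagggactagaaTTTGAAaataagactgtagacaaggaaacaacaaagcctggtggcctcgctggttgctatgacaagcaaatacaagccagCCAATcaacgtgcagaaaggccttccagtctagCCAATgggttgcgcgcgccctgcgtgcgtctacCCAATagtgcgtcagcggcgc
TTTGAA lay in 22 of 31 promoters found for 29 mitosis genes (71.0%), against 17.9% of all promoters and 11.8% of those of the genes tested, each counted from 250 bases before to 50 after the start. CCAAT lay in 24 of the 31 (77.4%), against 37.4% of all promoters.

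On the other side of the comparison with P35 stood plasma proteins. Serpina3k, an inhibitor of serine proteases (-8.87), Itih3 (-8.15), Mup3 (-7.37), vitronectin (Vtn, -7.17) and Mup20 (-7.03) were among the largest differences with the P10 change the lower. In IL6-iHPCs of mouse-1 these 5 genes were at means of 31.9 FPKM (Mup20) to 2686 FPKM (Serpina3k) at P10 and of 0 (Mup3) to 6.32 FPKM (Vtn) at P35. Serpina3k went from 2686 ± 263 FPKM to 5607 ± 754 FPKM at P10 and from 4.199 ± 0.378 FPKM to 5062 ± 439.9 FPKM at P35. The major urinary proteins Mup3 and Mup20 have many near-identical copies, among which reads may have been split. For the urea and amino acid list, the difference was called for 28 of 48 genes, 19 of them with the P10 change the lower. Without the length trend the P10 change was the lower in 24 and the higher in 6. Over all genes 34.4% were called, with the P10 change the higher in 70.35% of those calls (42.07% without the trend).

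Against clone-1, whose labelled states did not match in Y-linked reads, the P10 change was the higher in Ass1 (8.26), Bhmt (7.58), Cyp3a11 (6.35), the galectin Lgals2 (6.70), the interferon-induced Ifi27 (6.04) and Crip1 (5.91). The differences of the opposite sign were led by Sprr1a (-9.06), Vtn (-7.20), Itih3 (-6.68), Iigp1 (-6.32), Fn1 (-5.85) and the collagen Col12a1 (-5.76). Sprr1a, a protein of the cornified envelope, went from 2.33 ± 0.127 FPKM to 323 ± 14.7 FPKM in clone-1 and fell in both P10 lines (-2.97 and -1.94). Fn1 fell in the P10 lines from 6227 ± 333 FPKM and 6358 ± 385 FPKM to 1416 ± 799.7 FPKM and 926 ± 155 FPKM, and went in clone-1 from 279 ± 21.8 FPKM to 2815 ± 455 FPKM. All 23 of the differences named here from P35 and clone-1 remained called without the length trend.

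Both metabolic zones of the liver lobule were represented among the rises. Of 25 genes of hepatocytes near the portal vein, 16 rose and 2 fell (median 2.06, 18 higher and 1 lower with the length trend removed), and of 19 genes of those near the central vein, 9 rose and 3 fell (median 0.94, 10 higher and 1 lower with the length trend removed). Cldn2, a tight junction protein of the central zone, fell (-2.19). Of 34 glucocorticoid targets, 11 rose and 7 fell (median 0.33, 14 higher and 2 lower with the length trend removed). Tat, Tdo2 and Cyp2b10 above, Igfbp1 (2.23) and Hsd11b1, which reactivates glucocorticoids (3.62), rose, and Per1 (-1.06), Klf9 (-1.21) and the receptor Nr3c1 (-1.02) fell, the last 3 not called without the length trend. Fkbp5 (0.998) and Tsc22d3 (0.73), both widely used as readouts of this receptor, were not called, though Fkbp5 was with the length trend removed (1.68). Tsc22d3 rose in mouse-1 (2.16) and had a change of -0.71 in mouse-2, and this difference of 2.87 was called. Of 31 interferon and antigen presentation genes, 12 rose and 4 fell (median 0.86, 10 higher and 3 lower with the length trend removed). Psmb9 of the immunoproteasome (2.22), Irf7 (2.07) and H2-K1 (1.59) rose, and Nlrc5, a transactivator of antigen presentation genes, fell (-2.28, -1.0 without the trend). Of 49 genes of ribosome biogenesis, 1 rose and 20 fell (median -0.78, 0 higher and 10 lower with the length trend removed). Shares of all genes were 11.1% and 23.7% as deposited, and 10.3% and 8.79% without the trend. Npm1, a nucleolar chaperone of 1364 bases, went from -2.28 to -2.66, and Ncl of 6800 bases from -2.27 to -1.05.

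Markers of other liver cells were scarce. Of 18 Kupffer cell markers, 2 passed the filter (Cd68 at -0.21 and Csf1r at 0.29, neither called over both lines, though Csf1r rose by 1.87 in mouse-1 and fell in mouse-2 (-1.28), a called difference of 3.14), and 14 or 15 of the 18 were at 0 in each P10 group, among them Adgre1, Clec4f and C1qa. The sum over the list was 0.97 to 4.92 FPKM in the P10 libraries and 28.9 to 33.1 FPKM in fresh hepatocytes. Red blood cell and lymphocyte markers had no gene past the filter. Of 16 stellate cell markers, decorin (Dcn) passed and fell, from 14.2 ± 4.65 FPKM and 3.93 ± 0.457 FPKM to 0.0934 ± 0.0457 FPKM and 0.438 ± 0.138 FPKM, and the sum of the list went from 3.76 to 19.5 FPKM in IL6-iHPCs to 0.17 to 0.64 FPKM in IL6-iMHs. Col3a1, Lum and Pdgfrb, among others of the list, were at 0 in the IL6-iHPCs of mouse-1. Of 15 endothelial markers, 3 passed (Stab1 at -0.37, Egfl7 at 0.81 and Flt1). Flt1, a receptor of vascular endothelial growth factor, stood at 0.3505, 0.267 and 0.347 FPKM in IL6-iHPCs of mouse-1 and 33.5, 47.9 and 32.5 FPKM in its IL6-iMHs, and 0.759, 0.736 and 0.732 FPKM and 8.59, 9.299 and 10.3 FPKM in the same states of mouse-2, with hepatocytes at 0.498 ± 0.139 FPKM. It accounted for most of the list's sum in IL6-iMHs. The sum went from 2.94 to 4.70 FPKM to 13.8 to 50.6 FPKM, while Cdh5, Emcn, Lyve1 and Clec4g were at 0 in all P10 groups. The part of such cells in the changes above was not tested. Of the defining hepatocyte markers, Ttr, Trf, Serpina1a and Apoa1 were present in all 12 libraries and Cps1 at no more than 1.57 FPKM in IL6-iHPCs.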

How the data were processed

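RNA-seq FPKM were analysed for 12 cultured cell libraries of passage 10. Per the labels, total RNA was isolated with Trizol, mRNA was purified with poly-T beads, and fragmented. The submitters' processing notes name TopHat 1.4.1, Cufflinks 1.3.0 and mm10. The authors deposited FPKM values, normalised by them to transcript length and library depth, in 1 matrix of 33 libraries. Read numbers and transcript lengths were recovered from the steps between low values (49.3 M to 88.9 M reads on genes). The main test does not use them, while voom and the removal of the length trend do.

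The test was limma 3.58.1 in R 4.3.3 with a mean-variance trend on log2(FPKM + 1), with 1 mean per group, on the 10922 genes that reached 1 FPKM in 3 or more of the 12 libraries, with Benjamini-Hochberg adjustment. A gene was called at an adjusted p below 0.05 and at least 2-fold. P35 and clone-1 were compared in a fit of 33 libraries in 11 groups. On simulated data of 10922 genes, 100 of 100 genes changed by 1.5 on the log2 scale were called. Values were drawn from a normal distribution with the spread of the technical repeats. Changes were planted alike in both lines and only in genes without low means. The simulation holds no variation between lines and no length trend, so it cannot speak to power or error between animals. Two-sided exact permutation of 3 against 3 samples cannot give a p below 0.1. The length trend was removed by lowess (span 0.3) of each library over transcript length. Alternatives were a pseudocount of 0.1, filters of 0 and 5 FPKM, quantile normalization, voom on recovered reads, a common sum of FPKM per library, fold thresholds, a replicate block and leaving out each library. Scaling to a common sum, removal of the length trend and the motif TTGCNNAA were added after seeing the data.

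The comparison, 49 gene lists and tests were chosen with earlier results of these data known. Genes were named as the 12 largest rises and falls called in both lines, the 2 largest of each list, the 6 largest differences between lines, from P35 and from clone-1, genes the study names for cell state, and members of the gp130, acute phase, transcription factor and other cell lists. Further genes were chosen after their values were seen, and some that the rule names are not reported here. In the matrix, 27 symbols had turned into dates, 17 of them among the genes tested, and 2 symbols listed more than once were averaged. Promoters and symbols are from RefSeq (GRCm38.p6). Python 3.11.15 with pandas 2.3.3, numpy 2.4.6 and matplotlib 3.10.9 was used.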

Additional observations from a re-analysis of the deposited data

Results flagged for a closer look

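The change on maturation differed between mouse-1 and mouse-2, by the interaction term of the limma fit with Benjamini-Hochberg adjustment over all genes, in 88 of the 194 genes named above. Those whose difference, or whose changes in both lines, are given above are named here. The value is the log2 change of mouse-1 minus that of mouse-2, from 3 libraries in each group. Mouse-1 had the lower change in Saa1 (-4.74), Saa2 (-5.31), Saa3 (-4.79), Saa4 (-4.24), Orm1 (-3.0), Orm2 (-3.29), Orm3 (-3.23), Hpx (-1.07), Itih4 (-2.87), Cd14 (-1.15), A2m (-2.33), Egr1 (-4.41), Hbegf (-3.45), Dusp5 (-2.38), Atf3 (-3.29), Osgin1 (-6.45), Thrsp (-5.78), Gckr (-4.94), Cyp1a2 (-2.52), Lcn2 (-1.48), Plg (-3.16) and Sprr1a (-1.03). It had the higher change in Ppp1r3c (4.79), Mbp (3.98), Wnt16 (3.88), Col6a1 (3.81), Rsrp1 (3.72), Ace (3.57), Krt19 (2.98), Mki67 (2.49), Ccnb2 (1.96), Tsc22d3 (2.87), Csf1r (3.14), Foxm1 (1.45) and Il6ra (1.26). The change of mouse-1 was also the lower in Gata6 (-1.25), Ereg (-1.97), Glul (-1.09) and Hmox1 (-2.14), and the higher in Foxa2 (1.92) and Onecut1 (2.12).

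The P10 change of mouse-1 differed from its P35 change, by the same kind of term in the fit over 33 libraries, in 129 of the 194 named genes. Among the 11 whose difference is given above, the P10 change was the higher in Ccnb1 (7.07), Ube2c (6.83), Ccnb2 (6.24), Ccna2 (6.10), Kif22 (5.96) and Plk1 (5.95), genes of the cell cycle. It was the lower in Serpina3k (-8.87), Itih3 (-8.15), Mup3 (-7.37), Vtn (-7.17) and Mup20 (-7.03), all of which encode secreted proteins.

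The mean P10 change of both lines differed from that of clone-1 in 124 of the 194 named genes. Among the 12 whose difference is given above, the P10 change was the higher in Ass1 (8.26), Bhmt (7.58), Lgals2 (6.70), Cyp3a11 (6.35), Ifi27 (6.04) and Crip1 (5.91) and the lower in Sprr1a (-9.06), Vtn (-7.20), Itih3 (-6.68), Iigp1 (-6.32), Fn1 (-5.85) and Col12a1 (-5.76). Since 1 labelled state of clone-1 held Y-linked reads and the other 0, these differences and a difference of source between the clone-1 libraries cannot be told apart.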

How the results depend on the processing

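The number of genes called stayed within 1.5 times of the reported one for pseudocounts, filters, quantile normalization, voom on recovered reads and scaling to a common sum, except in the difference between the lines. That difference gave 2975 calls with a pseudocount of 0.1, 3144 by voom on recovered reads and 2788 after scaling to a common sum of FPKM, against 1808. Removing the length trend gave 2088 calls for the maturation of P10 cells, 1996 in mouse-1, 2731 in mouse-2 and 1195 for the difference between lines. With no fold threshold the counts were 9847, 8993, 9640 and 7029, and 8696 against P35 and 9110 against clone-1. With a 4-fold threshold they were 749, 558, 1345 and 224. Leaving out 1 library at a time gave 3696 to 3905 calls for P10, 2930 to 3290 in mouse-1, 4883 to 4922 in mouse-2, 1695 to 2004 between the lines, 3653 to 3951 against P35 and 3548 to 3839 against clone-1. Of 194 named genes, removal of the length trend ended the call of 21 and turned the sign of 10, scaling ended 7 and quantile normalization 10. The sign turned under quantile normalization in Atf3 0.15, Ccnb2 0.22, Cd68 0.15, Gata4 0.14, Kif22 0.23, Lcn2 -0.35, Lgals2 0.027, Mxd3 0.14, Plk1 0.25, Saa1 -0.60, Stab1 0.087, Ube2c 0.35. It turned after scaling to a common sum in Barx2 -0.30, Ccnb1 -0.059, Cebpb -0.048, Lcn2 -0.25, Lifr -0.18, Saa1 -0.33, Saa4 -0.19. It turned with the length trend removed in Barx2 -0.048, Foxm1 0.091, Gata4 0.094, Hnf4a 0.72, Lcn2 -0.68, Nr3c1 0.14, Nr5a2 0.035, Saa1 -0.94, Stab1 0.98, Tyk2 0.39. Kif22 turned to 0.051 by voom on recovered reads. Barx2 ranged from -0.01 (without replicate 3 of the IL6-iMHs of mouse-1) to 0.123 when 1 library was left out. Of these, only Nr3c1 was called as reported, and it lost its call without the length trend. Calls near the 2-fold limit were lost when 1 library was left out in Krt19 (lowest 0.96), Itih3 (-0.98), Nr3c1 (-0.96), Gata6 (0.98) and Pparg (0.996). The replicate numbers did not pair the samples, since deviations of same-numbered samples correlated at -0.32 to 0.36, and with the replicate number as a block 3797 genes were called for P10, 3079 in mouse-1, 4909 in mouse-2, 1808 between lines, 3754 against P35 and 3708 against clone-1. Causes of these shifts were not tested. All limits rest on 3 technical repeats of 2 lines.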
